A study of Mus musculus with 18 samples.

Results

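The comparison described here sets cultured mouse cortical astrocytes carrying the Gi-coupled designer receptor hM4Di against astrocytes carrying the fluorescent protein EGFP, 90 min after ligand addition. Its members are all genes that passed edgeR's default filter on low counts, 13584 of the 22078 genes in the deposited table, measured in 6 of the 18 libraries of the series. The 3 hM4Di libraries and the 3 EGFP libraries came from cells transfected with a plasmid and given 8 µM deschloroclozapine (DCZ) for 90 min, 7 days after transfection. The EGFP cells received DCZ too, and no hM4Di cells without DCZ were compared, so what DCZ did through hM4Di cannot be told apart from what the plasmid itself did. Cells with hM3Dq (Gq-coupled) or rM3Ds (Gs-coupled), 3 libraries each and treated the same way, share the fit and serve as further points of reference. The labels give neither the promoter of the plasmids nor the share of cells transfected, and untransfected cells may have been part of each library. The level of the receptor transgene is not analysed here, so it does not check the labels.

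DREADDs are muscarinic receptors altered to answer a synthetic drug in place of acetylcholine. hM4Di was built from the human muscarinic receptor M4. It acts through Gi, whose alpha subunit inhibits adenylyl cyclase and so lowers cAMP, protein kinase A activity and phosphorylation of the transcription factor CREB. Gi also frees beta-gamma subunits, which act on ion channels, phospholipase C and kinases, and in astrocytes Gi-coupled receptors are known to evoke calcium signals. Astrocytes also answer type I and type II interferons through the Janus kinases and STAT factors, they make most of the cholesterol of the brain, and they secrete matrix proteins.

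Total counts were 18.2 to 25.2 M in the hM4Di libraries and 17.2 to 21.5 M in the EGFP libraries (M for mega), and 3 counts corresponded to 0.119 to 0.187 CPM, counts scaled to library size, over the 12 libraries. Libraries of both groups stood apart. In a principal component analysis of the 12 libraries, the first component, with 49.4% of the variance, placed EGFP 1 at -69.9 and rM3Ds 2 and 3 at -57.4 and -59.2. hM4Di 1 lay at -10.7 on this component, and the other 8 libraries lay between 18.9 and 27.8. On the third component, with 8.56% of the variance, hM4Di 1 was lowest at -37.8. The interferon, matrix and sterol results below are therefore given also without hM4Di 1 and without EGFP 1, as are some values of other lists. All 13 astrocyte markers passed the filter, with a summed level of 5860 to 7230 CPM in hM4Di and 5820 to 6280 CPM in EGFP cells. Most of each sum was Vim alone, at 4770, 6180 and 5720 CPM in hM4Di 1 to 3 and 4980, 4750 and 5080 CPM in EGFP 1 to 3. The sum therefore says little about the other astrocyte markers or about the share of astrocytes. Gfap, the astrocyte intermediate filament, was low, at 16.4, 1.95 and 3.32 CPM in hM4Di 1 to 3 and 23.2, 2.00 and 2.36 CPM in EGFP 1 to 3. Of 14 fibroblast and mural markers 11 passed the filter, with a summed level of 2040 to 3620 CPM in hM4Di and 2390 to 3150 CPM in EGFP cells. Of 12 neuron markers 8 stayed under 1 CPM in all 6 libraries, as did 11 of 14 microglia and macrophage markers, 5 of 11 oligodendrocyte lineage markers and 5 of 8 endothelial markers. Neural progenitor markers summed to 1020 CPM in EGFP 1 against 417 to 585 CPM in the other 5 libraries. In these bulk libraries fewer cells of a type and less RNA per cell cannot be told apart.

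No gene passed the test between hM4Di and EGFP cells. The smallest adjusted p was 0.515 (edgeR quasi-likelihood test, Benjamini-Hochberg adjusted over 13584 genes), reached by Pak3, Ifi35 and Itga1. At an unadjusted p under 0.05 there were 745 genes (5.48%), of which 315 lay higher (2.32% of genes tested) and 430 lower (3.17%) in hM4Di cells. The 3 hM4Di libraries lay all above the 3 EGFP libraries in 550 genes (4.05%) and all below in 607 (4.47%). limma-voom called 0 genes and had 707 (5.2%) at an unadjusted p under 0.05. DESeq2 called 35 genes, 21 higher (0.155%) and 14 lower (0.103%), and had 821 (6.04%) at an unadjusted p under 0.05. Because 0 genes were called in the test used throughout, the groups below are described by their values, and nothing is said to have risen or fallen against EGFP.

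The 5 genes with the smallest p were Pak3, Ifi35, Itga1, Capg and Ermp1, and Ifi35 is described with the interferon genes. Pak3 (Entrez 18481), a kinase activated by Rac and Cdc42, had 44.4, 43.0 and 37.0 CPM in hM4Di 1 to 3 and 62.5, 59.8 and 56.9 CPM in EGFP 1 to 3. The groups did not overlap, and the log2 fold change was -0.53 ± 0.09 (SE, n = 3 per group; edgeR adjusted p 0.515) with little change without hM4Di 1 (-0.59) or EGFP 1 (-0.48). Itga1 (109700), the integrin alpha subunit that pairs with beta 1 to bind collagen and laminin, had 200, 226 and 196 CPM in hM4Di and 423, 342 and 313 CPM in EGFP cells. It too did not overlap, at -0.79 ± 0.14 (SE; edgeR adjusted p 0.515). Ermp1, an endoplasmic reticulum metallopeptidase, was at 42.9 to 45.4 CPM in hM4Di and 51.9 to 61.4 CPM in EGFP cells, with a log2 fold change of -0.37 ± 0.08 (SE; edgeR adjusted p 0.774). Capg, an actin filament capping protein, had 24.5, 32.6 and 24.3 CPM in hM4Di and 15, 17.4 and 18.7 CPM in EGFP cells, and lay 0.67 ± 0.13 higher on the log2 scale (SE; edgeR adjusted p 0.774).

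Interferon-stimulated genes lay higher in hM4Di cells as a list, from the factors of the pathway to its antiviral effectors and the genes of antigen presentation. Of 129 listed genes 127 were in the table and 116 were tested. In 111 of the 116 (95.7%) the log2 fold change was above 0, against 47.9% of all genes tested, and the median was 0.47 against -0.01 for all genes. At an unadjusted p under 0.05, 60 (51.7%) lay higher, against 2.32% of all genes, and 0 lay lower. In 49 members (42.2%) all 3 hM4Di libraries lay above all 3 EGFP libraries, against 4.05% of all genes. In 32 members (27.6%) they lay above all 9 libraries of the other 3 groups, against 1.06% of all genes. DESeq2 called 12 members (10.3%), all higher, against 0.155% of all genes called higher. They were Ifi35, Irf7, Bst2, Rtp4, Ifit3, Tgtp1, Irgm1, Iigp1, Psmb8, Psmb10, Psme1 and H2-T22.

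The size of this lean differed between the 3 hM4Di libraries. The median over the 116 members of log2 CPM minus the gene's mean over 12 libraries was 0.81 in hM4Di 1 and 0.16 in both hM4Di 2 and hM4Di 3. It was -0.15, -0.08 and -0.02 in EGFP 1 to 3, -0.03 to 0.03 in hM3Dq and -0.32 to -0.20 in rM3Ds libraries. hM4Di 1 was the highest of the 12 libraries in 87 of the 116 members (75.0%), against 10.4% of all genes. With hM4Di 1 left out the median log2 fold change was 0.23, 89 members (76.7%) stayed above 0, and 32 (27.6%) were at an unadjusted p under 0.05 and higher, against 5.71% of all genes tested then. hM4Di 2 and 3 were both above all 9 libraries of the other groups in 34 members (29.3%), against 5.6% of all genes. Without EGFP 1 the median was 0.52, and with neither library it was 0.24. The median was thus about 2 times as large with hM4Di 1 as without it, on the same side of 0. Microglia and macrophage markers, of which 11 of 14 stayed under 1 CPM, summed to 208 CPM in hM4Di 1, the lowest hM4Di library for them, with a highest of 263 CPM in hM4Di 3 and 179 to 265 CPM in EGFP cells.

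**Figure D1:**
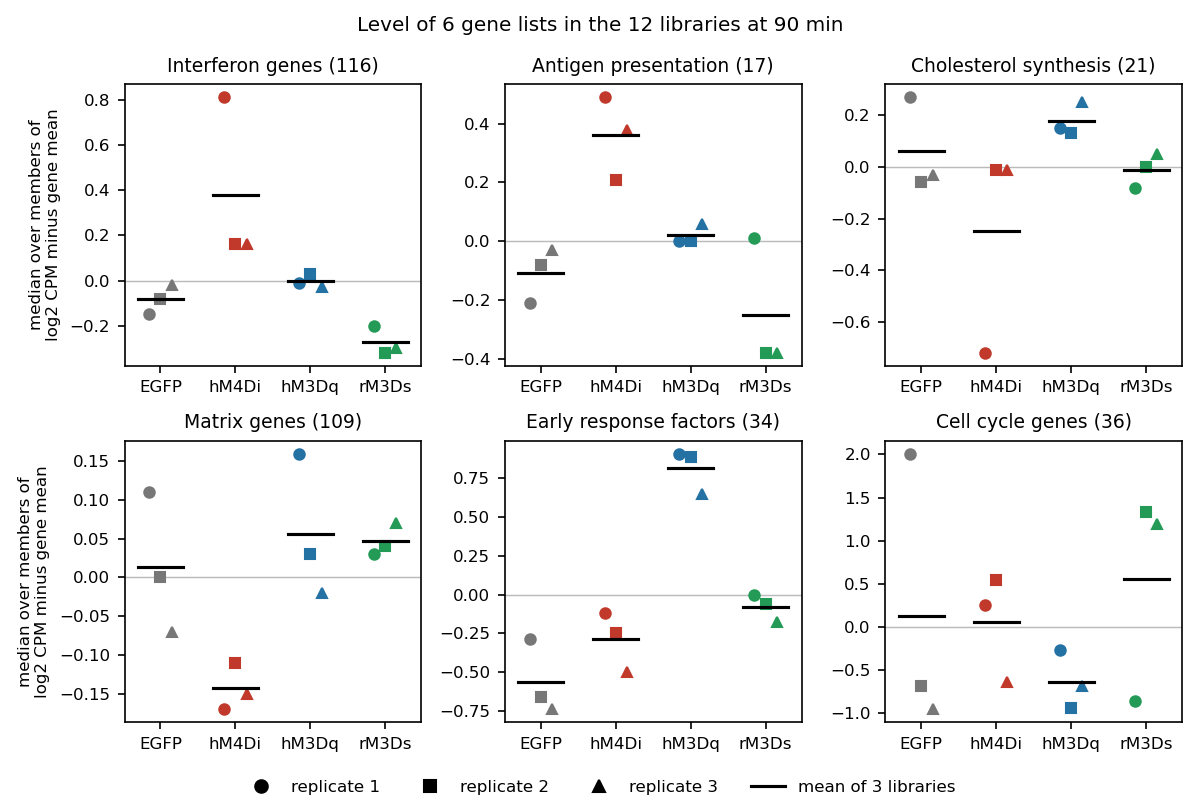
Median over the members of 6 gene lists of log2 CPM minus the gene's mean over the 12 libraries (y axis, log2 units), for each library by group (x axis), with the number of members tested in brackets. Symbols mark the replicate number and bars the mean of 3 libraries. hM4Di 1 stands apart at 0.81 for interferon genes and at -0.72 for cholesterol synthesis, and EGFP 1 at 2.01 for cell cycle genes.

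The promoters of 5 genes are printed because they belong to interferon genes with high levels in hM4Di cells and carry a shared motif. The interferon-stimulated response element is the DNA sequence bound by factors of the IRF family in the interferon response. Its core was searched as GAAA, any 2 bases and GAAA, on both strands in windows from 250 bases before to 50 bases after the gene start (RefSeq, GRCm38.p6), and overlapping matches were kept. Of the 116 tested interferon genes 89 had a window, and 40 of them (44.9%) held the core, against 403 of 10757 tested genes (3.75%) and 3.06% of the 13770 promoter windows that these genes have. Among the interferon-inducible GTPases 9 of 9 windows held it. Capitals mark the matches, which in Ifit3 and H2-T22 lie on the reverse strand.

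Bst2 (chr8:71537423-71537722, minus strand): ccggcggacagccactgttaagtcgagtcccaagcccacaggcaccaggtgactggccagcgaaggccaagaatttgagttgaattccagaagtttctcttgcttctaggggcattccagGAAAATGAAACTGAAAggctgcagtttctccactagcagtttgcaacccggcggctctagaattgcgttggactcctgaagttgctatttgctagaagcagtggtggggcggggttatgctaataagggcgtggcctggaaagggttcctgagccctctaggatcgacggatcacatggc
Irgm1 (chr11:48871371-48871670, minus strand): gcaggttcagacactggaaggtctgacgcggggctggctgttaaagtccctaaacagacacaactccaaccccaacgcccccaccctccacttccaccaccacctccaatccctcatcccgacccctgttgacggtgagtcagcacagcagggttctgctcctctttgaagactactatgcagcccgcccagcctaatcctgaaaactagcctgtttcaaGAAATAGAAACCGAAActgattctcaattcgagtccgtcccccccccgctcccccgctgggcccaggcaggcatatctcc
Ifit3 (chr19:34583279-34583578, plus strand): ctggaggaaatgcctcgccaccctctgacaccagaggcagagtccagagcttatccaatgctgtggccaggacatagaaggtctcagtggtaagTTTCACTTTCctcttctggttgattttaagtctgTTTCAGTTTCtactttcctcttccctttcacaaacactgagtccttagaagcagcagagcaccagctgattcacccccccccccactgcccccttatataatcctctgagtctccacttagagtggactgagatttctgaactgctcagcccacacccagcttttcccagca
Tgtp1 (chr11:48992197-48992496, minus strand): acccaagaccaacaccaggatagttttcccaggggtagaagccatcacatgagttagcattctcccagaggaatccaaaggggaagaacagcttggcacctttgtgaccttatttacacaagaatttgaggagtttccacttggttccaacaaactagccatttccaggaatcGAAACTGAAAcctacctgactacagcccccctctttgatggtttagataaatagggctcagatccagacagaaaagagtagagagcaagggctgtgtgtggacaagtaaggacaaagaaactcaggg
H2-T22 (chr17:36042693-36042992, minus strand): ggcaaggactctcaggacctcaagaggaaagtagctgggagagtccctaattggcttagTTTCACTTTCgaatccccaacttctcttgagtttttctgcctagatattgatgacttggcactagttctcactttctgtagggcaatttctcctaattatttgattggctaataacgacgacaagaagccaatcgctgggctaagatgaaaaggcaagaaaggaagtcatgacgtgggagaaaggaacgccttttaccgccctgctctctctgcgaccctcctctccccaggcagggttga

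Bst2 and Irgm1 each held a pair of overlapping matches, Ifit3 a pair 34 bases apart, and Tgtp1 and H2-T22 a single one. The windows of Ifi35, Irf7, Psmb8 and Psmb10 held no match, which says only that these letters are not in the window. The 40 interferon genes with the core had a median log2 fold change of 0.61 and the 49 without it 0.37. The 363 genes outside the list that held the core had a median of 0.00, and 14 of them (3.86%) were at an unadjusted p under 0.05 and higher, against 195 of 10305 (1.89%) without it. A match is a description of the sequence, not evidence of a bound site.

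Among signal transducers and factors of the interferon response, all 15 tested lay above 0 (median log2 fold change 0.47, or 0.23 without hM4Di 1). Of these 7 (46.7%) were at an unadjusted p under 0.05 and higher, against 2.32% of all genes. Ifi35 (Entrez 70110), an interferon-induced leucine zipper protein, had 122, 105 and 96.1 CPM in hM4Di 1 to 3 and 68.5, 72.0 and 76.7 CPM in EGFP 1 to 3. Every hM4Di library lay above all 9 others, and the log2 fold change was 0.57 ± 0.10 (SE; edgeR adjusted p 0.515), or 0.46 without hM4Di 1. Irf7 (54123), the factor that amplifies type I interferon production, had 570, 227 and 242 CPM in hM4Di and 181, 151 and 154 CPM in EGFP cells. The groups did not overlap, but hM4Di 1 was more than 2 times the other hM4Di libraries, and the log2 fold change of 1.10 ± 0.29 (SE; edgeR adjusted p 0.806) became 0.52 without it. Stat2, a factor activated by type I interferon, was at 60.1, 30.5 and 28.2 CPM in hM4Di against 30.2 to 36.7 CPM in EGFP cells, so hM4Di 2 was within the EGFP range and hM4Di 3 below it. Isg15, a ubiquitin-like modifier, had 351, 233 and 178 CPM in hM4Di against 202, 122 and 123 CPM in EGFP cells, with hM4Di 3 below EGFP 1.

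Of the 4 tested receptors and ligands 3 lay above 0, by little, and none was at an unadjusted p under 0.05. Ifnar1, a chain of the type I receptor, had 111, 105 and 99.3 CPM in hM4Di and 117, 113 and 112 CPM in EGFP cells. The groups did not overlap, with a log2 fold change of -0.12 ± 0.08 (SE; edgeR adjusted p 0.833). Ifnar2, its partner chain, had 67.0, 76.4 and 84.9 CPM against 48.9, 73.0 and 77.7 CPM, and the groups overlapped. The median log2 fold change of the group was 0.06.

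Sensors of foreign nucleic acid were high mainly in hM4Di 1. All 12 lay above 0, and their median log2 fold change was 0.22, but hM4Di 1 was the highest of 12 libraries in 10 of them, and the median was -0.04 without it. Tlr3, the receptor for double-stranded RNA, was at 117, 58.0 and 56.3 CPM in hM4Di and 46.6, 61.5 and 65.5 CPM in EGFP cells, so hM4Di 2 and 3 lay inside the EGFP range. Dhx58, a helicase of the RIG-I family, and Zbp1, a sensor of Z-form nucleic acid, lay higher in all 3 hM4Di libraries. Dhx58 had 97.8, 62.8 and 64.2 CPM in hM4Di against 36.9, 47.4 and 48.9 CPM in EGFP cells (log2 fold change 0.76 ± 0.20, SE; edgeR adjusted p 0.801). Zbp1 had 117, 64.8 and 55.1 CPM against 49.0, 40.5 and 44.0 CPM (0.83 ± 0.23, SE; edgeR adjusted p 0.830), and neither gene overlapped between the groups.

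Of 52 antiviral effectors 49 lay above 0, with a median log2 fold change of 0.46 that became 0.20 without hM4Di 1. At an unadjusted p under 0.05, 28 (53.8%) lay higher, against 2.32% of all genes. Bst2 (69550), the membrane tether that holds back budding virus, had 1240, 970 and 934 CPM in hM4Di and 741, 618 and 608 CPM in EGFP cells. All 3 hM4Di libraries were above the 9 others (log2 fold change 0.68 ± 0.14, SE; edgeR adjusted p 0.774), and the value was 0.53 without hM4Di 1. Rtp4, an interferon-induced receptor transporter, was at 216, 187 and 175 CPM in hM4Di and 132 to 144 CPM in EGFP cells, 0.47 ± 0.11 on the log2 scale (SE; edgeR adjusted p 0.774). Ifit3, which binds viral RNA together with IFIT1, had 2080, 1030 and 1010 CPM in hM4Di and 716, 717 and 810 CPM in EGFP cells. Its log2 fold change was 0.88 with and 0.43 without hM4Di 1, and in both cases the hM4Di libraries lay above the EGFP range. Mx1, a dynamin-like antiviral GTPase, was low, at 7, 1.39 and 1.74 CPM in hM4Di and 0.473 to 1.21 CPM in EGFP cells. Rsad2, the radical enzyme viperin, had 105, 35.9 and 37.7 CPM in hM4Di against 23.7, 33.8 and 37.2 CPM, and its log2 fold change of 0.92 was 0.21 without hM4Di 1. Ly6e, an interferon-inducible surface protein outside the list, had 312, 136 and 149 CPM in hM4Di and 72.8 to 100 CPM in EGFP cells (1.19 ± 0.30 on the log2 scale, SE; edgeR adjusted p 0.795). Ifi205, an interferon-inducible nuclear protein, had 7.28, 3.59 and 2.80 CPM against 1.51 to 2.07 CPM.

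Interferon-inducible GTPases, which attack the membranes of intracellular parasites, had the highest median of the interferon groups with more than 2 tested members. All 14 lay above 0, with a median log2 fold change of 0.72. In 8 (57.1%) all 3 hM4Di libraries lay above the 9 others, against 1.06% of all genes. The summary level was 1.29 in hM4Di 1 and 0.15 in both other hM4Di libraries, and the median was 0.25 without hM4Di 1. Irgm1 (15944) had 848, 560 and 523 CPM in hM4Di and 352, 385 and 444 CPM in EGFP cells, a log2 fold change of 0.71 ± 0.17 (SE; edgeR adjusted p 0.795). Tgtp1 (21822) had 220, 133 and 114 CPM against 53.0, 72.3 and 87.1 CPM, and Tgtp2, its near-identical neighbour, 410, 125 and 121 CPM against 22.9, 69.3 and 87.5 CPM. Reads of these paralogs may have been split between them, so each value is uncertain. The groups did not overlap in either, and the log2 fold changes of 1.14 and 1.87 were 0.79 and 1.03 without hM4Di 1. Iigp1, an effector at the vacuoles of parasites, was at 147, 51.9 and 54.8 CPM in hM4Di and 26.7 to 42.0 CPM in EGFP cells. The related Gm4951 was at 73.0, 28.4 and 27.4 CPM in hM4Di and 14.9 to 23.5 CPM in EGFP cells.

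Genes of antigen presentation moved less when hM4Di 1 was left out than the factors, sensors, effectors and GTPases did. Of 17 tested, 16 lay above 0, and the median log2 fold change was 0.45, or 0.40 without hM4Di 1. At an unadjusted p under 0.05, 13 (76.5%) lay higher, against 2.32% of all genes. The summary level was 0.49, 0.21 and 0.38 in hM4Di 1 to 3 and -0.21 to -0.03 in EGFP libraries. Psmb10 (19171), a catalytic subunit of the immunoproteasome, had 78.8, 75.3 and 82.7 CPM in hM4Di and 61.6, 58.6 and 58.9 CPM in EGFP cells. hM4Di 3 was the highest library here, and the log2 fold change was 0.40 ± 0.09 (SE; edgeR adjusted p 0.774) with and 0.39 without hM4Di 1. Psmb8 (16913), another immunoproteasome subunit, had 88.8, 67.8 and 65.4 CPM against 49.5, 45.9 and 42.4 CPM, or 0.69 ± 0.16 on the log2 scale (SE; edgeR adjusted p 0.774). Psmb9, the remaining catalytic subunit, was at 31.2, 29.8 and 25.8 CPM in hM4Di and 12 to 19.9 CPM in EGFP cells. Of the class I heavy chains, H2-D1 was at 1790, 1150 and 1440 CPM in hM4Di and 891 to 978 CPM in EGFP cells, and H2-K1 at 1270, 964 and 1210 CPM against 725 to 814 CPM. B2m, the class I light chain, was at 1800, 1710 and 1730 CPM in hM4Di and 1180, 1220 and 1440 CPM in EGFP cells. None of these 6 genes overlapped between the groups. H2-T22, a non-classical class I chain, was at 314, 217 and 197 CPM in hM4Di and 141 to 170 CPM in EGFP cells. Counts of class I genes are uncertain because their sequences are alike. Erap1, the peptide-trimming peptidase, was the exception below 0, at -0.07.

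The chemokines Cxcl10 and Ccl5, which draw T cells, did not have hM4Di 1 as their highest library. Cxcl10 was at 12.6, 17.1 and 16.1 CPM in hM4Di and 2.36, 9.50 and 9.22 CPM in EGFP cells, with a log2 fold change of 1.12 ± 0.56 (SE; edgeR adjusted p 0.833). EGFP 1 was the low library, and the log2 fold change was 0.72 without it. In hM3Dq cells Cxcl10 was at 9.98, 21.4 and 13.5 CPM, which overlaps with the hM4Di level. Ccl5 was at 1.5, 1.90 and 0.897 CPM against 0.236, 0.744 and 0.403 CPM, and the groups did not overlap in either gene.

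**Figure D2:**
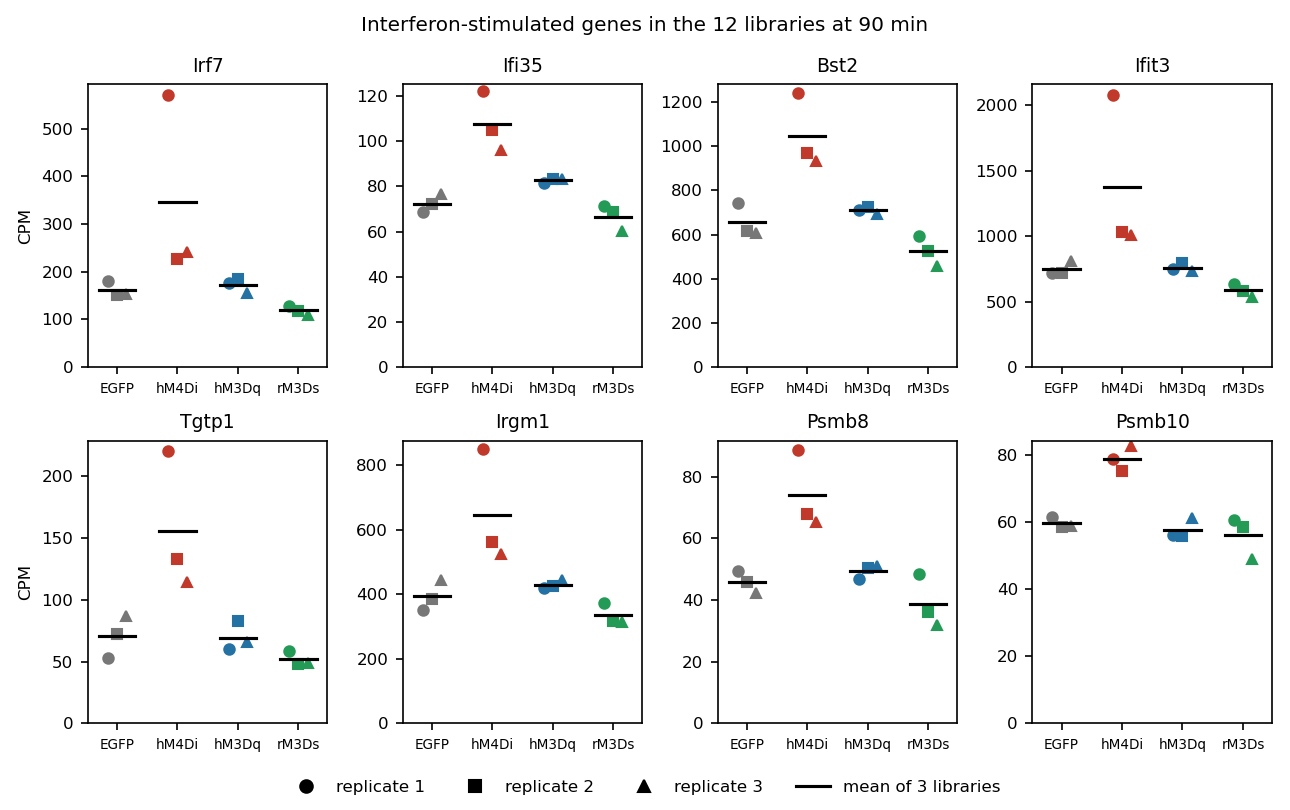
CPM (y axis, linear from 0) of 8 interferon-stimulated genes in the 12 libraries by group (x axis). Symbols mark the replicate number and bars the mean of 3 libraries. In all 8 genes the 3 hM4Di libraries lie above the other 9. These genes were chosen for a small p or after their values were seen. In the whole interferon list this held in 32 of 116 tested genes (27.6%). hM4Di 1 lies far above hM4Di 2 and 3 in Irf7 (570 against 227 and 242 CPM) and close to them in Psmb10 (78.8 against 75.3 and 82.7 CPM).

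Against the other receptors the interferon genes leaned the same way. These contrasts share the hM4Di libraries with the EGFP comparison, and their values are given side by side only. Against hM3Dq the median log2 fold change of the 116 members was 0.38 and 48 were at an unadjusted p under 0.05 and higher, against 3.94% of all genes. There Psmb10 passed the test (log2 fold change 0.45; edgeR adjusted p 0.0448), while 7 of 13584 genes (0.0515%) were called higher in all. Without hM4Di 1 its log2 fold change was 0.44 and the call was lost (edgeR adjusted p 0.0814). Plscr1, an interferon-inducible phospholipid scramblase, was also called (log2 fold change 0.59; edgeR adjusted p 0.00812), at 28.6 to 32.0 CPM in hM4Di and 19.2 to 21.1 CPM in hM3Dq cells, and its adjusted p was 0.0221 without hM4Di 1 (edgeR). Against rM3Ds the median was 0.73 and 81 members were at an unadjusted p under 0.05 and higher, and 0 genes were called higher (edgeR; 504 genes, 3.71%, were at an unadjusted p under 0.05 and higher).

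Genes of the extracellular matrix leaned lower by less. Of 109 tested, 69 lay below 0 and 40 above, where 52.1% of all genes lay below, and the median log2 fold change was -0.11. At an unadjusted p under 0.05, 12 (11%) lay lower, against 3.17% of all genes. At the same threshold 3 (2.75%), all proteases and inhibitors, lay higher, against 2.32% of all genes. In 12 members (11%) the hM4Di libraries lay all below the EGFP libraries, against 4.47% of all genes. The summary level of the list was -0.17, -0.11 and -0.15 in hM4Di 1 to 3 and 0.11, 0.00 and -0.07 in EGFP 1 to 3, so the groups did not overlap and the 3 hM4Di libraries lay close together. hM4Di 1 was the lowest of 12 libraries in 23 members (21.1%, against 11.2% of all genes), and EGFP 1 the highest in 31. Without EGFP 1 the median was -0.03, with 58 members below 0 and 51 above, and 7 lower and 6 higher at an unadjusted p under 0.05. Without hM4Di 1 the median was -0.17, and without both it was -0.04. Fibroblast and mural markers, which include matrix genes, summed to 2040, 3620 and 2630 CPM in hM4Di 1 to 3 and 3150, 2750 and 2390 CPM in EGFP 1 to 3, and their part in the result was not tested.

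Among glycoproteins and non-fibrillar collagens, Lamb1 and Col4a5 had the smallest p of their groups. Lamb1, a laminin beta chain, had 242, 262 and 260 CPM in hM4Di and 305, 341 and 311 CPM in EGFP cells. The groups did not overlap, the log2 fold change was -0.33 ± 0.09 (SE; edgeR adjusted p 0.819), and it was -0.34 without EGFP 1. Lamc1, a laminin gamma chain chosen after its values were seen, was at 271 to 319 CPM in hM4Di and 334 to 385 CPM in EGFP cells, and Lama5, an alpha chain, at 198 to 254 CPM against 287 to 366 CPM. Col4a5, a chain of network-forming collagen IV, had 185, 203 and 202 CPM in hM4Di against 284, 252 and 241 CPM (-0.40 ± 0.10 on the log2 scale, SE; edgeR adjusted p 0.795), and -0.31 without EGFP 1. P3h2, a prolyl hydroxylase that modifies collagen IV, had 16.5, 25.7 and 20.4 CPM against 43.8, 42.7 and 31.1 CPM, or -0.91 ± 0.21 (SE; edgeR adjusted p 0.774) and -0.81 without EGFP 1. DESeq2 called these 2 genes and Lamb1 lower, 3 of the 109 tested members of the matrix list, against 0.103% of all genes. It called no other member of that list. Itga1, the receptor subunit described above, was at -0.64 without EGFP 1.

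A pair of further genes of adhesion and matrix also lay lower in both cases. Svep1, a large adhesion protein that binds integrin alpha 9 beta 1, had 26.4, 41.7 and 30.2 CPM in hM4Di and 76.7, 80.0 and 66.5 CPM in EGFP cells. No library overlapped, and the log2 fold change was -1.18 ± 0.24 (SE; edgeR adjusted p 0.774), -1.06 without hM4Di 1 and -1.15 without EGFP 1. Reck, a membrane inhibitor of metalloproteinases, was at 237, 233 and 256 CPM against 488, 340 and 326 CPM, with -0.67 overall and -0.45 without EGFP 1.

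Of the 10 lowest fold changes among non-overlapping genes averaging 1 or more in log2 CPM, 9 were set largely by EGFP 1, with Svep1 as the exception. Enpp2, the secreted enzyme autotaxin, had 12, 15.6 and 17.8 CPM in hM4Di and 127, 23.1 and 23.3 CPM in EGFP cells, and its log2 fold change of -1.94 was -0.61 without EGFP 1. Thbs1, the matricellular protein thrombospondin 1, had 689, 628 and 440 CPM against 2810, 871 and 738 CPM, and went from -1.33 to -0.45. Stc1, a secreted glycoprotein hormone, had 214, 261 and 220 CPM against 939, 319 and 292 CPM, and went from -1.16 to -0.38. Pcsk6 (a proprotein convertase), Thsd4 (a microfibril protein), Baiap2l1, Fry, Rbm20 and Cgnl1 (a junction protein) had the same form, at -1.90 to -1.27 with and -0.48 to -0.27 without EGFP 1. These genes were chosen for groups that do not overlap, so lying below EGFP 2 and 3 is fixed by the choice. In all 9 of them rM3Ds 2 and 3 were above the hM4Di libraries, as EGFP 1 was. Fbn1, the main microfibril protein, was at 195, 265 and 168 CPM against 440, 294 and 253 CPM and overlapped (-0.65, or -0.37 without EGFP 1). Adamts9, a protease of the versican and aggrecan core proteins, was at 12.8, 22.4 and 17.6 CPM against 41.0, 26.9 and 25.0 CPM.

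Fibrillar collagens lay below 0 in 5 of 8, with a median of -0.16 and 0 at an unadjusted p under 0.05. Col5a1 had 215, 232 and 226 CPM in hM4Di and 333, 285 and 232 CPM in EGFP cells, with hM4Di 2 and EGFP 3 nearly equal, and Col11a1 overlapped at 13.0 to 22.2 against 20.9 to 28.5 CPM. Col1a1, also a fibroblast marker, had 778, 1920 and 1400 CPM in hM4Di and 1130, 1470 and 1210 CPM in EGFP cells. Col4a2 (-0.42) and the cross-linking enzyme Loxl2 (-0.29) overlapped between groups and were at -0.13 and -0.10 without EGFP 1.

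**Figure D3:**
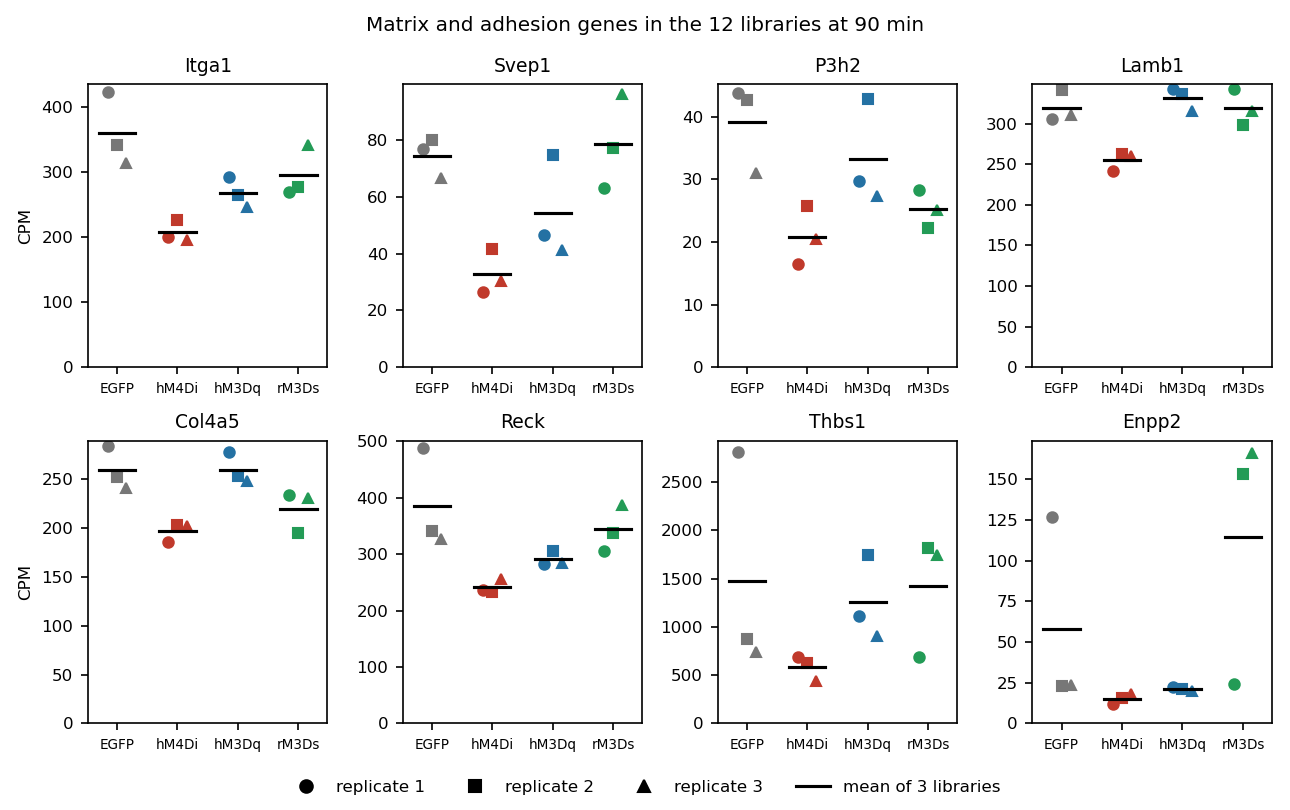
CPM (y axis, linear from 0) of 8 matrix and adhesion genes in the 12 libraries by group (x axis). Symbols mark the replicate number and bars the mean of 3 libraries. The hM4Di libraries lie below all EGFP libraries in the 8 genes. These were chosen for a small p, for no overlap or after their values were seen, so this separation largely follows from the choice. In the matrix list it held in 12 of 109 tested genes (11%). In Thbs1 and Enpp2 the EGFP mean is drawn up by EGFP 1 (2810 and 127 CPM).

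Sterol genes leaned lower in hM4Di 1. Cholesterol synthesis genes had a log2 fold change above 0 in 0 of 21 and a median of -0.23. In 3 (14.3%) the unadjusted p was under 0.05, against 3.17% of all genes lower. Their summary level was -0.72 in hM4Di 1 and -0.01 in both hM4Di 2 and hM4Di 3, against 0.27, -0.06 and -0.03 in EGFP 1 to 3. hM4Di 1 was the lowest of 12 libraries in 19 of the 21 genes (90.5%), against 11.2% of all genes, and EGFP 1 was the highest in 9. Without hM4Di 1 the median was -0.05, without EGFP 1 it was -0.14, and without both it was 0.06. Without both, 14 of the 21 genes lay above 0. Over all 57 tested genes of sterol and lipid metabolism, 8 (14.0%) were at an unadjusted p under 0.05 and lower against 3.17% of all genes, and the median of -0.19 was 0.01 without both. Fatty acid synthesis genes did not turn with it: 2 of 14 lay above 0 with all libraries and 4 of 14 (28.6%) without both, with medians of -0.23 and -0.10.

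Among single enzymes hM4Di 1 was the low library, while hM4Di 2 and 3 lay within or below the EGFP range and nearer to it. Hmgcs1, which makes HMG-CoA, had 181, 360 and 338 CPM in hM4Di and 413, 368 and 365 CPM in EGFP cells. Idi1, the isopentenyl diphosphate isomerase, had 63.2, 159 and 142 CPM against 164, 141 and 151 CPM. In Idi1 hM4Di 2 and 3 lay within the EGFP range, and hM4Di 1 far below it. Lss, the lanosterol synthase, had the smallest p of the group, with 50.1, 77.4 and 71.3 CPM against 119, 84.5 and 81.8 CPM (-0.52 ± 0.18 on the log2 scale, SE; edgeR adjusted p 0.833), and -0.15 without both libraries. Sc5d, a sterol desaturase, was at 91.0, 135 and 135 CPM against 174, 142 and 152 CPM. Npc2, which moves cholesterol out of lysosomes, went the other way, at 439 to 535 CPM against 408 to 451 CPM. Among genes of fatty acid synthesis, Scd1, the stearoyl-CoA desaturase, was at 227, 319 and 290 CPM against 463, 326 and 348 CPM, and Acss2, an acetyl-CoA synthetase, at 22.6 to 25.2 CPM against 25.0 to 42.0 CPM. The cholesterol exporter Abca1 and the acyltransferase Lpcat3 overlapped between groups. The sterol regulatory element, searched as TCACNCCAC on both strands, was found in 1 of the 42 sterol genes with a promoter window (2.38%), that of Hmgcs1, against 1.39% of tested genes.

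**Figure D4:**
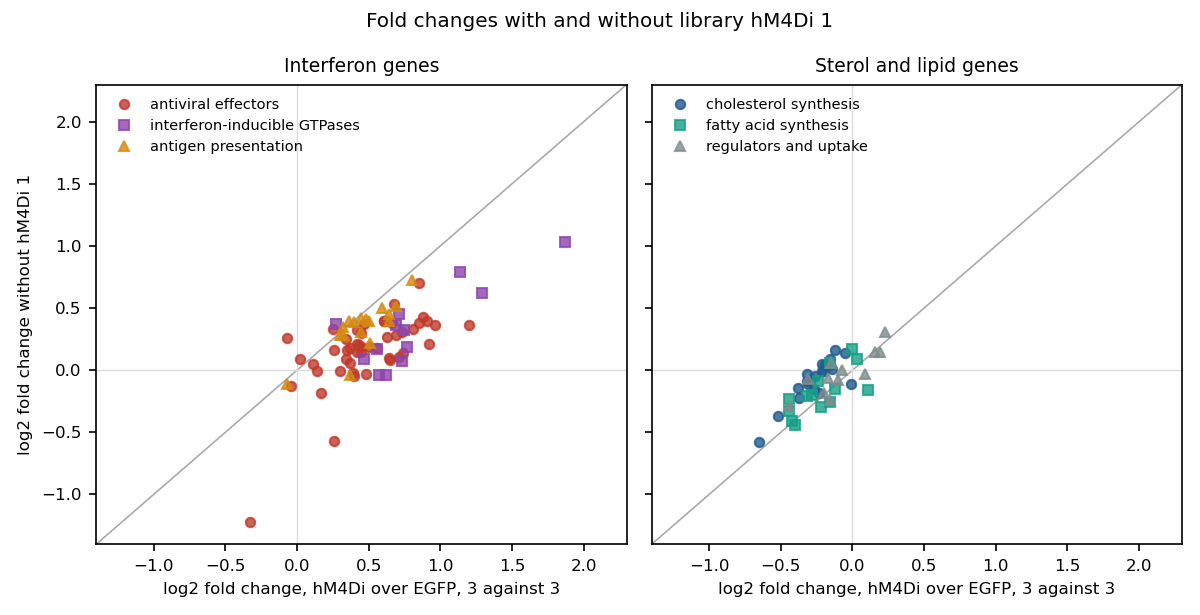
Log2 fold change of hM4Di over EGFP with all 3 hM4Di libraries (x axis) and without hM4Di 1 (y axis), each point a gene whose log2 CPM averaged 1 or more and each color a group of the list. The grey diagonal marks equal values. Most interferon points lie below the diagonal and above 0 on the y axis, antigen presentation genes lie nearest the diagonal (medians 0.45 and 0.40), and cholesterol synthesis genes move from a median of -0.23 to -0.05.

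Genes controlled by cAMP were compared because Gi lowers this messenger. Of 36 tested CREB target genes 20 lay above 0 and 16 below in hM4Di against EGFP cells, with a median log2 fold change of 0.02. Without hM4Di 1 the majority turned to the lower side, with 14 (38.9%) above 0 and a median of -0.05, and without EGFP 1 22 (61.1%) were above 0 with a median of 0.04. The summary level was -0.22, -0.36 and -0.36 in hM4Di and -0.35, -0.27 and -0.35 in EGFP libraries, which overlap, while it was 0.47 to 0.58 in hM3Dq and -0.01 to 0.14 in rM3Ds libraries. Only against other receptors were members called lower in hM4Di cells, 12 of 36 against hM3Dq (0.751% of all genes) and 2 of 36 against rM3Ds (0.0147% of all genes). Vgf, a secreted neuropeptide precursor, had 1.11, 1.13 and 1.53 CPM in hM4Di, 0.426, 0.744 and 0.461 CPM in EGFP, 6.21 to 8.49 CPM in hM3Dq and 6.21 to 7.28 CPM in rM3Ds cells. It was lower than in rM3Ds cells by -2.46 on the log2 scale (edgeR adjusted p 0.011) and 1.20 ± 0.27 above EGFP (SE; edgeR adjusted p 0.774). Nr4a2, an orphan nuclear receptor, had 10.4, 11.4 and 11.8 CPM in hM4Di, 5.82, 9.55 and 8.47 CPM in EGFP and 25.7 to 30.9 CPM in rM3Ds cells, and was called lower than in rM3Ds cells (-1.34; edgeR adjusted p 0.0356). In both genes the hM4Di libraries lay above the EGFP libraries and below every library of the other receptors. Without hM4Di 1 neither was called against rM3Ds, and the gene called lower then (0.00724% of genes) was Arhgap8. Against hM3Dq 103 genes (0.746%) were called lower without hM4Di 1, and of the 109 called in either direction with it 76 stayed. The CRE motif TGACGTCA, searched on both strands, was found in 4 of 28 CREB targets with a promoter window (14.3%) against 3.52% of tested genes.

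Adenylyl cyclases, phosphodiesterases and kinase A subunits lay below 0 in 19 of 23, against 52.1% of all genes. Their median log2 fold change was -0.17. Without EGFP 1, 12 of the 23 lay below 0 and 11 above, and the median was -0.07. Adcy8, a calcium-stimulated cyclase, had 0.831, 0.390 and 0.791 CPM in hM4Di and 4.02, 1.03 and 1.15 CPM in EGFP cells, and Pde3b, a cAMP phosphodiesterase, 1.43 to 1.94 CPM against 1.89 to 4.78 CPM. G protein subunits, regulators and Gi effectors had 0 of 55 members at an unadjusted p under 0.05, and without hM4Di 1 there were 6 higher and 7 lower, against 5.71% and 8.79% of all genes, with the median going from -0.08 to -0.16. Without EGFP 1 the median was 0.07. With all libraries the smallest p were those of Gng2, a gamma subunit, and Rgs2, which speeds GTP hydrolysis. Gng2 overlapped, at 1.27 to 3.36 CPM against 1.18 to 1.32 CPM. Rgs2 did not overlap, at 12.6, 17.0 and 14.3 CPM against 8.99, 12.4 and 11.1 CPM.

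Early response factors, the genes switched on within minutes of receptor signalling, leaned slightly higher than in EGFP cells and lay far below their level with hM3Dq. Of 34 tested, 28 were above 0 against EGFP with a median log2 fold change of 0.19, and 10 (29.4%) were at an unadjusted p under 0.05 and higher, against 2.32% of all genes. Without hM4Di 1 the median was 0.12 and 5 (14.7%) were so, against 5.71% of all genes, and without EGFP 1 the median was 0.36. The summary level was -0.12, -0.25 and -0.50 in hM4Di and -0.29, -0.66 and -0.74 in EGFP libraries, so the groups overlapped, and 0.65 to 0.91 in hM3Dq libraries. Against hM3Dq 15 of the 34 were called lower, against 0.751% of all genes, with a median of -1.15. Fos, the AP-1 subunit used as an activity marker, had 13.3, 15 and 16.9 CPM in hM4Di, 10.0, 14.9 and 15.3 CPM in EGFP and 52.7 to 56 CPM in hM3Dq cells. Against EGFP its log2 fold change was 0.17 ± 0.15 (SE; edgeR adjusted p 0.850), and against hM3Dq it was -1.84 (edgeR adjusted p 0.000124). Nr4a1, a nuclear receptor induced early, overlapped with EGFP at 113 to 146 against 95.7 to 144 CPM, and Egr1, a zinc finger factor, at 9.97 to 26.9 against 6.63 to 16.7 CPM.

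Myc, the growth-promoting factor, was higher in all hM4Di libraries than in EGFP cells, at 20, 26.7 and 20.6 CPM against 13.4, 16.6 and 14.4 CPM. Its log2 fold change against EGFP was 0.60 ± 0.14 (SE; edgeR adjusted p 0.774), with 0.66 without hM4Di 1, and DESeq2 called it. The hM4Di level was not apart from that of rM3Ds cells, at 22.4 to 24.6 CPM (log2 fold change -0.07), and hM3Dq cells had 32.7 to 41.9 CPM. Fosb, an AP-1 subunit, had 10.8, 4.07 and 5.12 CPM against 2.93, 2.86 and 3.40 CPM, and Egr2 11.7, 3.77 and 3.90 CPM against 2.36, 3.09 and 2.65 CPM. Neither overlapped, but hM4Di 1 was the high library in both, and their log2 fold changes of 1.12 and 1.26 were 0.57 and 0.49 without it. Sgk1, a kinase induced by growth signals, had 63.3, 70.4 and 36.7 CPM against 39.0, 34.7 and 32.4 CPM and overlapped. Feedback inhibitors of ERK signalling had a median of 0.01, with Dusp5, an ERK phosphatase, at 13.9 to 15.4 CPM against 7.09 to 11.4 CPM, and Dusp1, a related phosphatase, at 14.8 to 17.6 CPM against 55.5, 18.9 and 16.9 CPM.

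**Figure D5:**
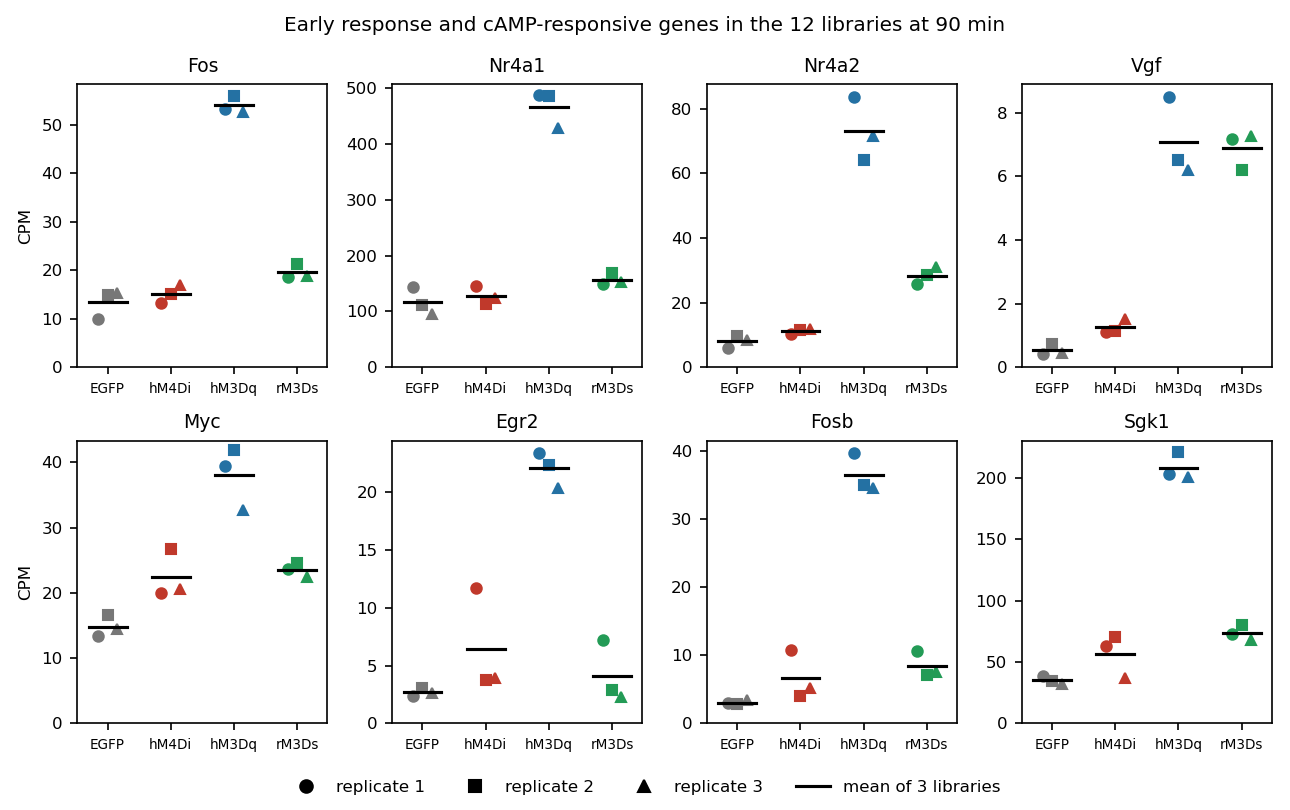
CPM (y axis, linear from 0) of 8 early response and cAMP-responsive genes in the 12 libraries by group (x axis). Symbols mark the replicate number and bars the mean of 3 libraries. hM3Dq libraries lie above every other library in 7 of the 8 genes, while Vgf is about as high in rM3Ds (6.21 to 7.28 CPM) as in hM3Dq libraries.

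In the remaining lists few genes were at an unadjusted p under 0.05 with all libraries. Over all genes this count went from 745 to 2001 without hM4Di 1, and it rose in most of these lists too. Homeostatic astrocyte genes were an exception, with 1 higher and 1 lower with all libraries and 0 and 1 without hM4Di 1. Of 22 NF-kB targets and cytokines 20 lay above 0 (median log2 fold change 0.27). At an unadjusted p under 0.05, 2 (9.09%) lay higher, against 2.32% of all genes, the interleukin 33 receptor Il1rl1 and the chemokine Cxcl1. Without hM4Di 1 there were 6 (27.3%) higher, against 5.71% of all genes, and the median was 0.31. Il1rl1 had 2.97, 9.09 and 2.58 CPM in hM4Di against 0.426, 1.49 and 2.07 CPM in EGFP cells, and Cxcl1 4, 9.13 and 9.07 CPM against 1.99, 4.86 and 4.78 CPM. Reactive astrocyte genes had a median of 0.06, and those nearest a call, Psmb8 and Iigp1, are also interferon genes. Homeostatic astrocyte genes had a median of -0.03. Id3, a BMP target, was at 376 to 397 CPM against 321 to 347 CPM, and Fgfr3, a growth factor receptor of astrocytes, at 43.6 to 52.4 CPM against 191, 48.2 and 56.3 CPM. The list of unfolded protein and stress response genes had a median of 0.11. Ddit3, the stress factor CHOP, had 104, 81.2 and 85 CPM in hM4Di against 72.8, 60.8 and 63.2 CPM. Atf6, a membrane-bound stress sensor, had 52.3 to 60.8 CPM against 67.3 to 70.2 CPM. Neither overlapped. Without hM4Di 1, 8 of the 23 genes of this list (34.8%) were at an unadjusted p under 0.05 and higher, beside 5.71% of all genes. They were Ddit3, Trib3, Chac1, Asns, Psat1, Phgdh, Sdf2l1 and Manf. Other members lay near or below 0 then, such as Hspa5 at 0.04, Hsp90b1 at -0.01, Dnajc3 at -0.22 and Atf6 at -0.3. In all, 18 of the 23 lay above 0 and 5 below without hM4Di 1. With hM4Di 1 there were 2 (8.7%) at an unadjusted p under 0.05 and higher, beside 2.32% of all genes. The median was 0.20 without hM4Di 1. Of 24 glycolysis genes 5 (20.8%) were at an unadjusted p under 0.05 and higher without hM4Di 1. With it there was 1 (4.17%), and the shares of all genes were those just given. Their median of 0.12 was 0.18 without hM4Di 1, 0.08 without EGFP 1 and 0.09 without both. EGFP 1 was the lowest of 12 libraries in 11 of these 24 genes, against 2013 of all 13584 genes. TGF-beta and BMP targets had a median of 0.09, or -0.03 without hM4Di 1, with 18 and then 13 of 28 above 0. Glycolysis genes and heat shock chaperones (median 0.08) held Gpi1, a glycolytic isomerase, at 476 to 507 CPM against 399 to 449 CPM, Pgam1, a mutase, at 325 to 343 against 260 to 313 CPM, and Hsf1, the heat shock factor, at 45.1 to 49.2 against 43.0 to 45.0 CPM. Hspe1, a mitochondrial chaperonin, overlapped.

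Cell cycle genes took their direction from EGFP 1. All 36 had a log2 fold change below 0 with a median of -0.63, and with EGFP 1 left out all 36 were above 0 with a median of 1.00. Their summary level was 0.26, 0.55 and -0.64 in hM4Di and 2.01, -0.68 and -0.95 in EGFP libraries. Rrm2, a subunit of ribonucleotide reductase, had 11.6, 14.6 and 6.17 CPM in hM4Di and 55.3, 6.69 and 5.42 CPM in EGFP cells, and Ccne1, cyclin E1, 2.34 to 4.04 CPM against 11.4, 1.89 and 1.73 CPM. Both overlapped between groups.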

How the data were processed

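Libraries were made from poly-A enriched RNA, per the labels. Per the submitters' processing notes, reads passed through fastp (0.23.4) and Salmon (1.8.0), with mm39 as the genome build. The authors deposited estimated counts per gene, of which 55.9% were not whole. How transcripts were summed to genes, and whether strand was used, is not given in the sources used here, so paralogs and overlapping or antisense genes are uncertain. Symbols came from a RefSeq gene table of another build, so no coordinates of the counted genes are given. It matched 21978 Entrez identifiers (99.55%), and the other 100 held 0.033% of the counts.

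Counts were rounded and tested with edgeR 4.0.16 (R 4.3.3): quasi-likelihood test with robust dispersion, TMM scaling, default filter on low counts, and Benjamini-Hochberg adjustment with calls below 0.05. The 12 libraries at 90 min were fitted together (4 groups of 3, 8 residual degrees of freedom). CPM values are TMM-scaled. DESeq2 1.42.0 and limma 3.58.1 (voom) were alternatives. The labels do not say that replicates are separate cultures, so p-values reflect only how these libraries vary, which may be technical. Floors cover counting error only.

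The members and gene lists were chosen with earlier results of these data known, so list counts are descriptions. Named genes were Fos, Egr1, Nr4a1, Chrm3 and Gfap, the 5 smallest p, the 10 highest and 10 lowest fold changes among genes averaging 1 or more in log2 CPM, with an unadjusted p under 0.05 and no overlap, and the 2 smallest p of each list or list group. Some genes under this rule are not reported here. Genes named outside this rule were chosen after their values were seen: Stat2, Isg15, Tlr3, Ifit3, Mx1, Rsad2, Psmb9, H2-D1, H2-K1, H2-T22, B2m, Erap1, Lamc1, Lama5, Col1a1, Reck, Hmgcs1, Idi1, Plscr1, Psme1, Arhgap8, Trib3, Chac1, Asns, Psat1, Phgdh, Sdf2l1, Manf, Hspa5, Hsp90b1 and Dnajc3. Fits without both hM4Di 1 and EGFP 1, and the values between receptors without hM4Di 1, were chosen after seeing the data.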

Additional observations from a re-analysis of the deposited data

How the results depend on the processing

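The count of genes called was 0 under RLE and upper-quartile scaling, without a filter, at 1 CPM in 3 libraries, with limma-voom, with only hM4Di and EGFP fitted, without EGFP 1, rM3Ds 2 and rM3Ds 3, and with each of the 6 libraries left out (0 to 0). It was 35 with DESeq2 and 1 (Arhgap8) without both hM4Di 1 and EGFP 1. The count at an unadjusted p under 0.05 ranged from 452 (hM4Di 3 left out) to 2001 (hM4Di 1 left out), and was 379 with only hM4Di and EGFP fitted, 1314 without EGFP 1, rM3Ds 2 and rM3Ds 3, and 2438 without both hM4Di 1 and EGFP 1. Same-numbered libraries correlated at 0.38, 0.092 and 0.28 in their deviations from the group means, so the numbers are not shown to pair them, and hM4Di 2 correlated best with EGFP 3 (0.18). With the replicate block 0 genes were called, and 525 (12 libraries) or 494 (6 libraries) had an unadjusted p under 0.05. The matrix median ranged from -0.20 to -0.03 with 1 library left out and was -0.04 without both. The sterol median reversed to 0.01 without both. Of 80 named genes 8 reversed somewhere and 19 passed 0.05 with DESeq2. Without EGFP 1, rM3Ds 2 and rM3Ds 3, Fos was at -0.02, Chrm3 -0.29, Gfap 1.73, Ifnar2 -0.00, Rrm2 0.82 and Ccne1 0.70. Without both hM4Di 1 and EGFP 1, Chrm3 was at -0.15, Gfap 0.28, Lpcat3 0.03, Rrm2 0.79 and Ccne1 0.42. With 1 library left out, Chrm3 ranged from -0.26 (EGFP 1 out) to 0.74, Gfap from -1.81 (hM4Di 1 out) to 1.75 (EGFP 1 out), Rrm2 from -1.53 to 0.84 (EGFP 1 out), Ccne1 from -1.17 to 0.72 (EGFP 1 out) and Nr4a1 from -0.00 (EGFP 3 out) to 0.32. Gfap was also at 0.13 without hM4Di 2 and 0.02 without hM4Di 3. The causes were not tested. The median SE over all genes was 0.16 on the log2 scale, which limits what 3 libraries a group can separate.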
